A study of Homo sapiens with 5 samples.

Results

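The transcripts described here are the mRNAs of 10 genes of the AKT, GSK3 and mTOR pathway: AKT1, AKT2, AKT1S1, GSK3A, GSK3B, TSC1, TSC2, MTOR, RPTOR and MLST8. They were taken by name from the 56632 genes listed in the tables, and all 10 were among the 11764 genes that reached an average FPKM of 1 across the libraries and were analysed. FPKM is the number of fragments per kilobase of transcript, scaled to the total of the library, so it can be compared between genes. The 5 libraries came from MCF10A, an established line of non-tumorigenic human breast epithelial cells, kept in medium with insulin and epidermal growth factor and given no treatment. In RNA immunoprecipitation (RIP) an antibody captures a protein together with the RNA bound to it, and the input is RNA from the same kind of cells that did not go through the antibody step. A FLAG antibody was used on cells expressing FLAG-tagged CBFB, which gave 1 input and 1 RIP library, and an antibody to hnRNPK was used on parental cells, which gave 1 input and 2 RIP libraries. CBFB is the partner of the RUNX transcription factors, and hnRNPK is an RNA-binding protein with a preference for C-rich sequence. The labels do not say whether the FLAG-CBFB cells kept their own CBFB, and no mock immunoprecipitation was analysed here. There was 1 library of each input and 1 FLAG-CBFB RIP, so CBFB values carry no replicate error, and the 2 hnRNPK repeats were set against the same parental input. The labels do not say whether these repeats came from separate cultures, so their spread may be technical.

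AKT is a protein kinase that insulin and growth factors switch on through PI3-kinase and membrane lipids. It phosphorylates GSK3, a kinase that is active in resting cells and is inhibited by that phosphorylation, and it phosphorylates TSC2, which with TSC1 holds back the small GTPase RHEB. RHEB in turn activates mTOR complex 1, in which MTOR is the kinase, RPTOR brings in the substrates, MLST8 binds the kinase domain and AKT1S1 (PRAS40) is an inhibitory subunit that AKT also phosphorylates. The complex promotes protein synthesis and cell growth.

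The libraries held 6.98e+07 to 1.07e+08 expected counts. Mitochondrial genes took 4.27% of the counts in the FLAG-CBFB cell input and 11.2% in the parental input, but 62.2% with CBFB and 84.5% and 86.6% with hnRNPK, which left most other genes with a lower FPKM after immunoprecipitation than before. Over the analysed genes the mean log2 ratio of RIP to input, from FPKM + 1, was -1.34 for CBFB and -2.61 and -2.68 for the hnRNPK repeats. Enrichment below is the log2 ratio of FPKM + 1 between a RIP and its own input minus that mean. An enrichment of 0 is therefore the average gene, and a gene was called enriched above 2, that is 4-fold above the average gene. As a scale, RUNX1 mRNA, which encodes the DNA-binding partner of CBFB, had an enrichment of 2.13 with CBFB and 3.09 ± 0.28 (SD, n = 2) with hnRNPK, and GAPDH, a glycolytic enzyme, had -0.18 and -2.69 ± 0.04. All 10 breast epithelial markers checked had an FPKM of at least 1 in both inputs, and of the 7 markers of other cell types that were found, 1 did.

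GSK3A and AKT1S1 mRNA were recovered with CBFB and with hnRNPK far above the average gene, and the other 8 mRNAs were not. Above the enrichment threshold were 2 of the 10 genes for CBFB, where 4.37% of all analysed genes were, and the same 2 for hnRNPK, where 8.20% of all analysed genes were. Both proteins together had 3.79% of the analysed genes above the threshold. The median enrichment of the 10 genes was -0.48 for CBFB and 0.08 for hnRNPK, against -0.19 and -0.11 over all analysed genes, so the set as a whole lay near the average gene.

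**Figure D1:**
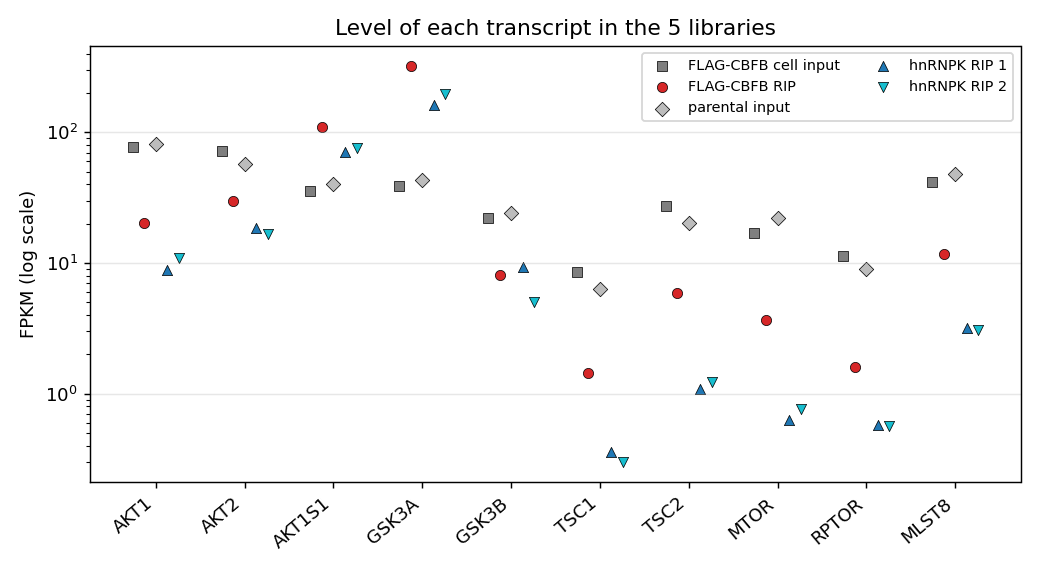
FPKM (log scale) of the 10 genes in each of the 5 libraries, 1 point per library. GSK3A and AKT1S1 were the genes with a higher FPKM in every RIP than in either input, and the other 8 were lower in every RIP than in either input.

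The expected counts, on which the tests of the hnRNPK RIP were run, gave a similar split with more genes on the upper side. By edgeR's quasi-likelihood test with Benjamini-Hochberg adjustment over all 16639 genes tested, 4 of the 10 genes rose in the hnRNPK RIPs relative to the parental input (AKT2, AKT1S1, GSK3A and GSK3B), where 21.9% of all genes tested did. One gene fell (MTOR), where 15.8% of all genes tested did, and 5 did not pass. The spread in these tests is that of the 2 RIP repeats, as there is 1 input. They scale libraries by trimmed means of the counts and do not divide by transcript length. Their zero therefore differs from that of the FPKM enrichment, and a different mix of isoforms can move them further. AKT1S1 had a log2 fold change of 4.51 against an enrichment of 3.47. Its abundance-weighted transcript length was 1967 nt in the parental input and 1831 and 1813 nt in the hnRNPK RIPs. At the same count, a shorter length gives a higher FPKM. The part of the zero and of the length in the gap between these 2 values was not tested.

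**Figure D2:**
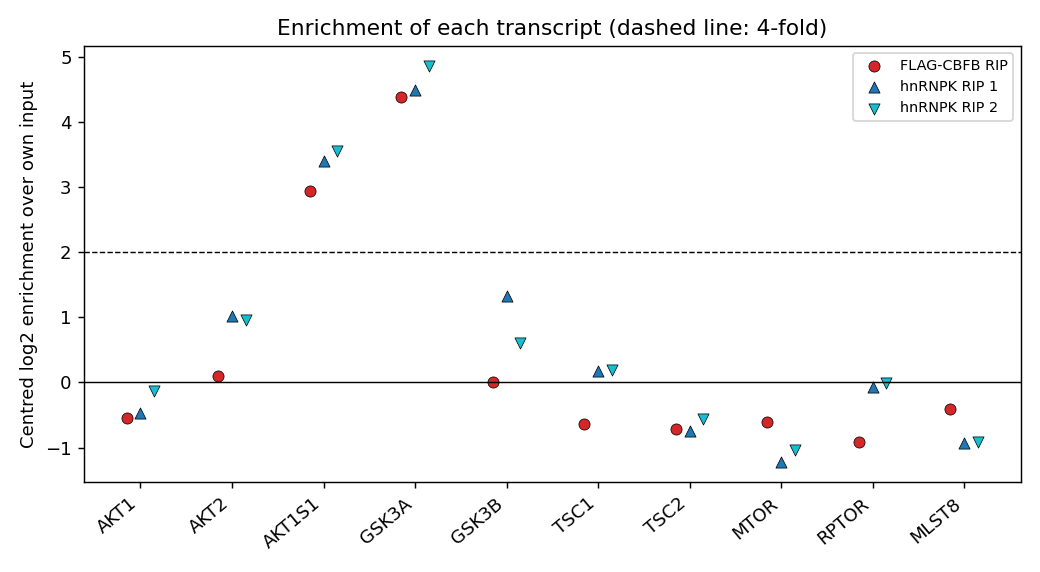
Enrichment (log2, relative to the average gene) of the 10 genes in the FLAG-CBFB RIP and in each hnRNPK RIP, 1 point per library, with the 4-fold threshold dashed. GSK3A (4.37 with CBFB) and AKT1S1 (2.94) stand above the threshold in all 3 RIPs, and the other 8 genes stay below it.

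GSK3A, which encodes the alpha form of glycogen synthase kinase 3 (ENSG00000105723, chr19:42230186-42242625 on the minus strand of GRCh38, 11 exons in its reference transcript), had the highest enrichment of the 10 with either protein. Its FPKM was 38.5 in the FLAG-CBFB cell input and 323 in its RIP, with 42.8 in the parental input against 161 and 198 in the hnRNPK RIPs. Every RIP thus lay above both inputs even before any centring, by 8.38-fold for CBFB and by 3.75-fold and 4.62-fold for hnRNPK. The enrichment was 4.37 with CBFB, with a 95% counting interval of ± 0.04, and 4.68 ± 0.26 (SD, n = 2) with hnRNPK. In the order of the 11764 analysed genes this was rank 68 for CBFB and rank 85 for hnRNPK. As CPM (counts scaled to 1e+06) of the counts outside the mitochondrial genes, GSK3A went from 68.6 to 1436 in the FLAG-CBFB libraries and from 82.6 to 2034 and 2709 in the parental and hnRNPK libraries. By edgeR's quasi-likelihood test the log2 fold change in the hnRNPK RIPs was 6.0 (SE 0.44, Benjamini-Hochberg adjusted p = 7.0e-39). GSK3A was one of the transcripts that the study singled out on these libraries for follow-up, so its enrichment is not independent evidence here.

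GSK3B, the gene of the beta form (ENSG00000082701, chr3:119821323-120094417, minus strand), encodes a kinase with a nearly identical catalytic domain. Its FPKM was 22.2 in the FLAG-CBFB cell input and 8.17 in the RIP, with 24.2 in the parental input against 9.37 and 5.02 in the hnRNPK RIPs. The RIPs were thus below the inputs, in contrast to GSK3A. Relative to the average gene the enrichment was 0.00 with CBFB and 0.97 ± 0.51 with hnRNPK, with 1.33 in repeat 1 and 0.61 in repeat 2. The gap between the repeats, 0.71, was wider than the SD of the same difference over all analysed genes, 0.35.

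The counts of GSK3B gave a higher value for hnRNPK than its FPKM did. Expected counts were 12665 and 4024 in the FLAG-CBFB input and RIP, 4625 in the parental input, against 4970 and 2757 in the hnRNPK RIPs. As CPM outside the mitochondrial genes this was 124 and 117 for the FLAG-CBFB libraries, 74.6 for the parental input, and 311 and 227 for the hnRNPK RIPs. The edgeR quasi-likelihood test gave a log2 fold change of 3.02 (SE 0.40, Benjamini-Hochberg adjusted p = 7.4e-13). The parental input differed from the other 4 libraries in the isoforms assigned to the gene: the abundance-weighted transcript length was 2896 nt there, against 5509 nt in the FLAG-CBFB cell input, 5583 nt in its RIP, and 5314 and 6235 nt in the hnRNPK RIPs. The part of that length difference in the hnRNPK value of GSK3B was not tested.

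Within a library the ratio of the 2 GSK3 mRNAs needs no scaling between libraries. GSK3A was 1.74 times GSK3B by FPKM in the FLAG-CBFB cell input and 39.5 times in the RIP, with it was 1.77 times GSK3B in the parental input and 17.1 and 39.4 times in the hnRNPK RIPs. The inputs were thus alike by FPKM, and the RIPs were all shifted to GSK3A. By expected counts the inputs differed. The FLAG-CBFB cell input had 7018 for GSK3A and 12665 for GSK3B, and the parental input had 5121 and 4625. On the log2 scale of FPKM + 1 the enrichment of GSK3A exceeded that of GSK3B by 4.37 with CBFB (95% counting interval ± 0.06) and by 3.71 ± 0.77 (SD, n = 2) with hnRNPK. On the count scale, which carries the isoform difference in the parental input, the difference of the edgeR log2 fold changes was 2.99. These differences between genes were not tested, and the counting interval covers counting error only, not the spread between libraries.

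**Figure D3:**
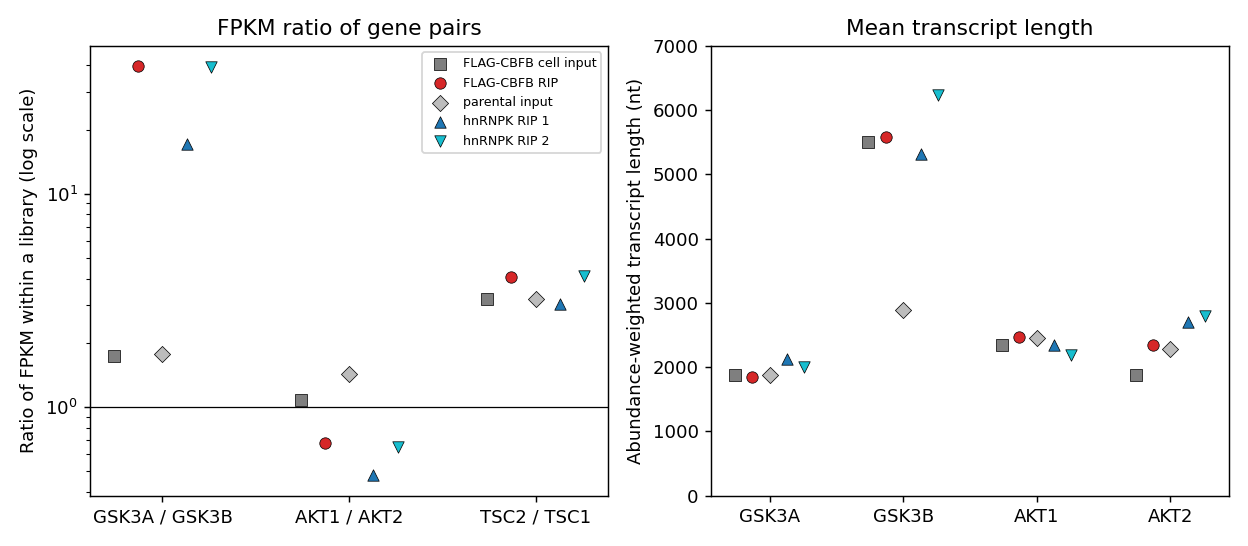
Left, ratio of FPKM between the members of 3 gene pairs in each library (log scale), 1 point per library, with the line at 1. Right, abundance-weighted mean transcript length (nt) of the GSK3 and AKT genes in the same libraries. The GSK3A to GSK3B ratio is 1.74 and 1.77 in the inputs and 17.1 to 39.5 in the RIPs, and GSK3B is short (2896 nt) in the parental input.

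As hnRNPK binds C-rich RNA, the most C-rich 30 nt of the reference transcripts are shown for the GSK3 pair, 5′ to 3′ as DNA letters with every C in capitals. Sequences and GRCh38 coordinates are those of GENCODE release 29. The window of GSK3A lies in the 3′ UTR (chr19:42230505-42230534, minus strand) and that of GSK3B in the 5′ UTR (chr3:120093898-120093927, minus strand).
GSK3A: CCCCCtCCCCtCCCCCagaCCtCCaCCtCC
GSK3B: gCCaCCCCCtCCCtCCCtCtCCCtCCCtCC
By this measure the paralogues were alike, with 22 C in 30 nt in each. They differed in how often C runs occurred. The GSK3A transcript of 2188 nt held 29 runs of at least 4 C, or 13.3 per kb, which was above 97.9% of the analysed protein-coding genes with a reference transcript. The GSK3B transcript of 7711 nt held 22 such runs, or 2.85 per kb, below the median of 3.53. GC content was 61.4% for GSK3A and 42.1% for GSK3B. These are descriptions of the letters, and no binding site was measured. The abundance-weighted length of GSK3B was 2896 to 6235 nt, so its reference transcript may hold sequence absent from the RNA present.

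AKT1S1, the gene of the inhibitory mTOR complex 1 subunit PRAS40 (ENSG00000204673, chr19:49869033-49878459, minus strand), was the other enriched mRNA. Its FPKM was 35.9 in the FLAG-CBFB cell input and 111 in the RIP, with 40.5 in the parental input against 70.5 and 75.2 in the hnRNPK RIPs. All 3 RIPs again lay above both inputs. The enrichment was 2.94 with CBFB (95% counting interval ± 0.04; rank 249) and 3.47 ± 0.11 (SD, n = 2; rank 304) with hnRNPK, so GSK3A was higher by more than the spread of the repeats. The edgeR quasi-likelihood test gave a log2 fold change of 4.51 (SE 0.42, Benjamini-Hochberg adjusted p = 5.4e-25). Without centring, the log2 ratio of AKT1S1 was 1.60 for CBFB and 0.78 and 0.88 for hnRNPK, below the threshold of 2. Exons of AKT1S1 overlap those of TBC1D17 on the opposite strand over 392 nt. TBC1D17 had fewer counts in each RIP than in its input, 1301 against 203 and 137 in the parental and hnRNPK libraries, whereas AKT1S1 had 5107 against 12085 and 11182.

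AKT1 and AKT2 encode AKT kinases. Their mRNAs differed from each other in the RIPs, and neither reached the threshold. AKT1 (ENSG00000142208, chr14:104769349-104795751, minus strand) had an FPKM of 77.5 in the FLAG-CBFB cell input and 20.2 in the RIP, with 81.7 in the parental input against 8.81 and 10.8 in the hnRNPK RIPs. AKT2 (ENSG00000105221, chr19:40230317-40285536, minus strand) had 71.5 and 29.8 in the FLAG-CBFB libraries, and 57.4, 18.4 and 16.7 in the parental and hnRNPK libraries. Every RIP was below the inputs for both genes, by more for AKT1. The enrichment of AKT1 was -0.55 with CBFB and -0.30 ± 0.24 with hnRNPK, and that of AKT2 was 0.11 and 0.99 ± 0.04 (SD, n = 2). The sign of the hnRNPK value of AKT1 depended on the setting, with 0.39 at a pseudocount of 0.1, 0.51 with FPKM rescaled without mitochondrial genes and 0.30 in log2 CPM scaled by trimmed means. In CPM outside the mitochondrial genes, AKT2 went from 138 in the parental input to 301 and 328 in the hnRNPK RIPs, and AKT1 from 211 to 124 and 163. By edgeR's quasi-likelihood test AKT2 rose, with a log2 fold change of 2.36 (SE 0.38, Benjamini-Hochberg adjusted p = 7.1e-09), and AKT1 did not pass (0.60, SE 0.35, adjusted p = 0.17). In log2 CPM scaled by trimmed means, AKT2 (2.06) and GSK3B (2.70) came above 2 for hnRNPK, which made 4 of the 10 genes. That scale is not centred on the average gene, and GSK3A (5.70) and AKT1S1 (4.21) were also higher on it. The share of all genes above 2 on that scale is not given here, so this count cannot be set beside the 8.20%.

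Set against each other, AKT1 was 1.08 times AKT2 by FPKM in the FLAG-CBFB cell input and 0.676 times in the RIP. In the parental input it was 1.42 times AKT2, and in the hnRNPK RIPs 0.479 and 0.648 times. The order of the paralogues was therefore AKT1 first in both inputs and AKT2 first in all 3 RIPs. The difference in enrichment, AKT1 minus AKT2, was -0.66 with CBFB (95% counting interval ± 0.07) and -1.28 ± 0.28 (SD, n = 2) with hnRNPK. The mean AKT2 transcript length was 1871 nt in the FLAG-CBFB cell input and 2288 nt in the parental input, and 2338 to 2802 nt in the RIPs, so isoform mix also moved with this pair, and its part was not tested. Exons of AKT1 overlap an antisense gene, AL583722.2, over 663 nt, but it had at most 743 counts in a library.

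TSC1 (hamartin) and TSC2 (tuberin) form the complex that restrains RHEB, and neither mRNA was enriched. TSC1 (ENSG00000165699, chr9:132891348-132946874, minus strand) had an FPKM of 8.60 in the FLAG-CBFB cell input and 1.43 in the RIP, with 6.31, 0.36 and 0.30 in the parental input and the hnRNPK RIPs. TSC2 (ENSG00000103197, chr16:2047465-2089487, plus strand) had 27.5 and 5.85, and 20.3, 1.09 and 1.24. All RIP values lay below the inputs. The enrichment of TSC1 was -0.64 with CBFB and 0.19 ± 0.0035 with hnRNPK (0.18 and 0.19 in the repeats), and that of TSC2 was -0.72 and -0.65 ± 0.12. At an FPKM under 1 in the RIP the added 1 limits how far the ratio can fall, which raises the centred value of a weak gene such as TSC1. On the count scale the log2 fold changes in the hnRNPK RIPs were -0.29 for TSC1 and -0.65 for TSC2, and neither passed edgeR's quasi-likelihood test (Benjamini-Hochberg adjusted p = 0.58 and 0.15). TSC2 exceeded TSC1 by 3.20-fold and 3.21-fold by FPKM in the inputs, by 4.09-fold in the FLAG-CBFB RIP, and by 3.03-fold and 4.13-fold in the hnRNPK RIPs. The difference in enrichment, TSC2 minus TSC1, was -0.08 with CBFB (95% counting interval ± 0.14) and -0.84 ± 0.12 with hnRNPK on the FPKM + 1 scale, and it became 0.29 and -0.11 with a pseudocount of 0.1, so no difference between these partners was established. Exons of TSC2 overlap those of PKD1 (778 nt) and NTHL1 (402 nt) on the opposite strand, and whether counting used strand is not stated in the sources used here.

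The 3 remaining mRNAs encode the core of mTOR complex 1 and were all below the average gene or near it. MTOR, the kinase (ENSG00000198793, chr1:11106535-11262507, minus strand), had an FPKM of 17.1 in the FLAG-CBFB cell input and 3.69 in the RIP, with 22.2 in the parental input against 0.63 and 0.77 in the hnRNPK RIPs. Its enrichment was -0.61 with CBFB and -1.13 ± 0.13 (SD, n = 2) with hnRNPK, the lowest hnRNPK value of the 10. It was also the gene that fell by edgeR's quasi-likelihood test, with a log2 fold change of -1.23 (SE 0.35, Benjamini-Hochberg adjusted p = 0.0018). MTOR had a CPM outside the mitochondrial genes of 132 in the parental input against 22.7 and 27.4 in the hnRNPK RIPs.

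RPTOR, the scaffold that presents substrates to MTOR (ENSG00000141564, chr17:80544819-80966371, plus strand), had an FPKM of 11.4 and 1.59 in the FLAG-CBFB libraries and 9.08, 0.58 and 0.57 in the parental input and the hnRNPK RIPs. MLST8, the small subunit shared with mTOR complex 2 (ENSG00000167965, chr16:2204248-2209416, plus strand), had 41.8 and 11.8, and 47.9, 3.21 and 3.07. RPTOR had the lowest CBFB enrichment of the 10, -0.92, with -0.03 ± 0.04 for hnRNPK, and MLST8 had -0.40 and -0.92 ± 0.02. In the hnRNPK RIPs neither passed edgeR's quasi-likelihood test, with log2 fold changes of -0.21 for RPTOR and -0.30 for MLST8 (Benjamini-Hochberg adjusted p = 0.69 and 0.54). AKT1S1, the inhibitory subunit of the same complex, thus had an enrichment of 2.94 and 3.47, where the subunits MTOR, RPTOR and MLST8 had none above 0. The hnRNPK value of RPTOR depended on the setting. It was 0.08 when centred on the median and 0.42 when centred on the mean over genes with an average FPKM of at least 5. In the other settings it stayed below 0, with -0.32 at a pseudocount of 0.1 and -0.51 in log2 CPM scaled by trimmed means. As for TSC1, an FPKM under 1 in these RIPs lets the added 1 limit how far the ratio can fall.

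The surrounding pathway was described in the same way, and its shares were not tested against those of all genes. Of 60 further genes listed by role, from receptor adaptors to mTOR targets, 59 were matched and 56 analysed. Above the threshold were 1 for CBFB (NPRL3) and 2 for hnRNPK (NPRL3 and EIF4EBP2), beside 4.37% and 8.20% of all analysed genes, and the medians were -0.28 and -0.39. By edgeR's quasi-likelihood test, 8 of the 59 rose (13.6%, beside 21.9% of all genes tested), 14 fell (23.7%, beside 15.8%) and 37 did not pass, with a median log2 fold change of -0.33 against -0.12 over all genes tested. Of the 14 genes of amino acid sensing, 1 rose, which was NPRL3, and 6 fell. Of the 13 targets 3 rose and 2 fell, of the 8 mTOR partners 2 fell, and of the 7 genes on the TSC side 1 rose and 3 fell. On the PI3-kinase and receptor side 2 of 9 rose and 1 fell, and of the 7 brakes on PI3-kinase and AKT 1 rose.

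**Figure D4:**
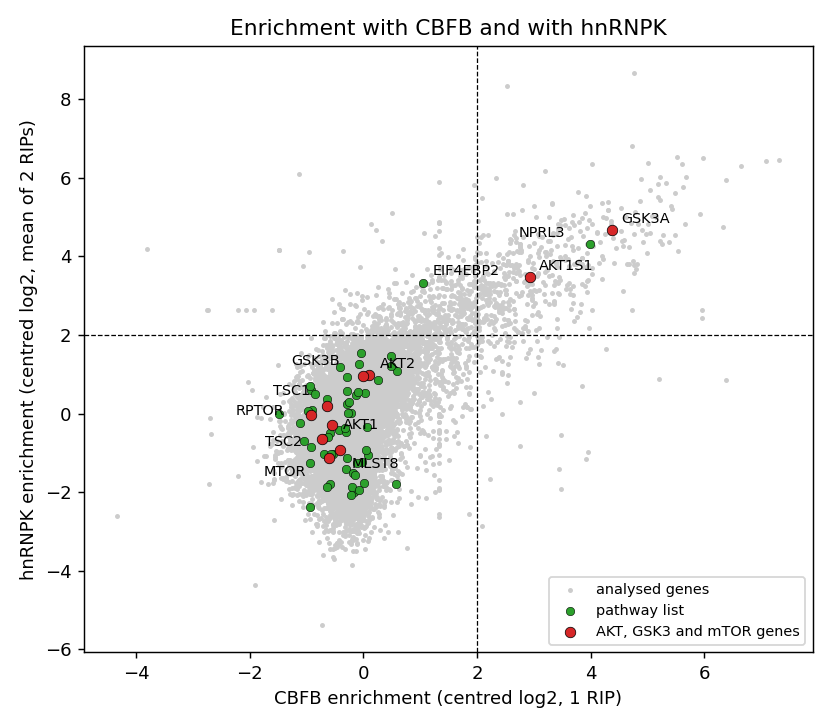
CBFB enrichment (1 RIP) against hnRNPK enrichment (mean of 2 RIPs), both log2 relative to the average gene, for the 11764 analysed genes (grey), the pathway list (green) and the 10 AKT, GSK3 and mTOR genes (red), with dashed lines at 2. GSK3A, AKT1S1 and NPRL3 lie above both lines, EIF4EBP2 lies above the hnRNPK line alone, and the other labelled genes lie below both lines.

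NPRL3, a subunit of the GATOR1 complex that shuts off mTOR complex 1 when amino acids run low, stood beside GSK3A. Its FPKM was 16.7 and 111 in the FLAG-CBFB libraries, and 27.2, 104 and 76.4 in the parental input and the hnRNPK RIPs, all RIPs above both inputs. The enrichment was 4.0 with CBFB and 4.32 ± 0.26 (SD, n = 2) with hnRNPK, and edgeR's quasi-likelihood test gave a log2 fold change of 5.41 (SE 0.44, Benjamini-Hochberg adjusted p = 4.4e-33). EIF4EBP2, a repressor of the cap-binding factor eIF4E that mTOR complex 1 inactivates, had an FPKM of 16.7 and 13.5 in the FLAG-CBFB libraries and 11.3, 18.2 and 19.5 in the parental input and the hnRNPK RIPs. It was above the threshold with hnRNPK (3.33 ± 0.12) and below it with CBFB (1.05). PIK3R2, a regulatory subunit of PI3-kinase, was next in order, with 0.48 and 1.45 ± 0.38.

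The lowest values of the pathway list were those of PPP2CA, CTNNB1 and DDIT4. PPP2CA, the catalytic subunit of protein phosphatase 2A, had an enrichment of -0.93 with CBFB and -2.38 ± 0.40 with hnRNPK, but its count fold change of -0.35 did not pass edgeR's quasi-likelihood test (Benjamini-Hochberg adjusted p = 0.45). Its abundance-weighted transcript length was 1495 nt in the parental input and 2621 and 3813 nt in the hnRNPK RIPs. The part of that length difference in its FPKM enrichment was not tested. CTNNB1, the GSK3 substrate beta-catenin, had -0.64 and -1.87 ± 0.02, and DDIT4, a stress-induced inhibitor of mTOR complex 1 signalling, had -0.58 and -1.79 ± 0.09. Both fell in the hnRNPK RIPs by edgeR's quasi-likelihood test, with log2 fold changes of -1.32 (adjusted p = 0.00065) and -0.89 (adjusted p = 0.018).

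Over the 10477 analysed protein-coding genes with a reference transcript, Spearman's rho between runs of at least 4 C per kb and enrichment was 0.23 for CBFB and 0.24 for hnRNPK, a description over genes that share the same libraries. For the most C in 30 nt, the measure of the printed windows, rho was 0.08 for CBFB and 0.32 for hnRNPK over these genes, and 0.48 and 0.81 over the 10 AKT, GSK3 and mTOR genes. Over the 10 genes, rho was 0.47 and 0.37 for runs per kb, and 0.12 and -0.02 for C content. RPTOR, with 21 C in 30 nt like AKT1S1, was not enriched. The median number of runs per kb was 3.53 over all 10477 genes, 10.5 over the 373 enriched with CBFB and 8.51 over the 740 enriched with hnRNPK. GSK3A (13.3) and NPRL3 (14.7) were above these medians and AKT1S1 (8.52) was at the second of them. MLST8 (9.09 per kb), AKT2 (8.68) and RPTOR (7.96) had numbers of runs per kb close to that of AKT1S1 and were not enriched, and EIF4EBP2 was enriched with hnRNPK at 2.48 per kb. Runs were counted on reference transcripts, which may hold sequence absent from the RNA present. That of AKT1S1 was 3640 nt against abundance-weighted lengths of 1809 to 2067 nt in the libraries. For AKT2 it was 5300 nt against 1871 to 2802 nt, and for GSK3A 2188 nt against 1847 to 2129 nt. AKT1 had 5.11, TSC2 5.84, TSC1 3.71 and MTOR 3.34 runs per kb. The window of AKT2, from its 3′ UTR (chr19:40233750-40233779, minus strand) and with 21 C, and that of AKT1, from the coding sequence (chr14:104770356-104770385, minus strand) and with 17 C, are shown because this pair differed in the RIPs.
AKT1: CCCCaCttCCCCCagttCtCCtaCtCggCC
AKT2: tCCCCaCCCCCaCCtCCtCaCCCCCtttCC
Transcript length had opposite signs for the proteins, with rho of -0.32 for CBFB and 0.30 for hnRNPK over the same genes.

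**Figure D5:**
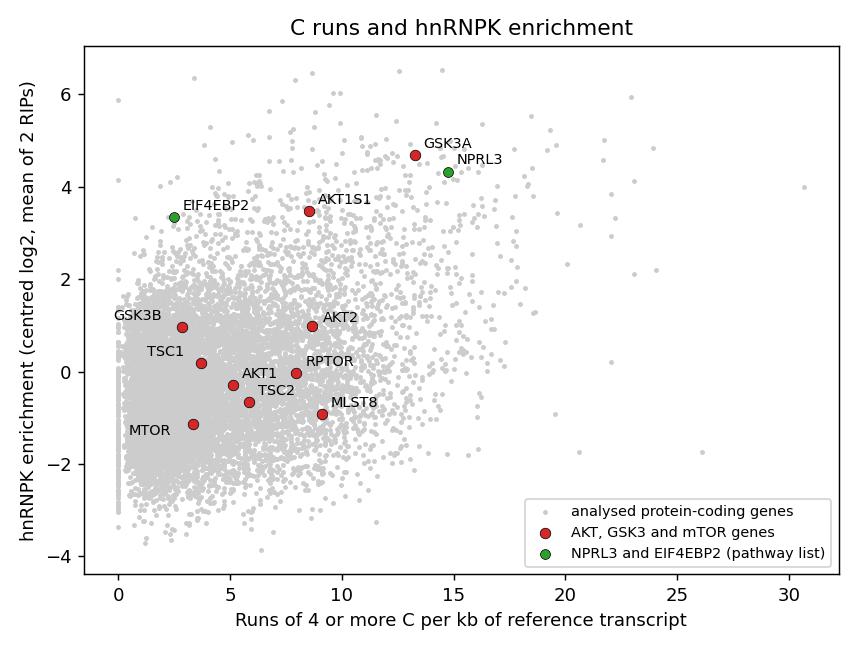
Runs of at least 4 C per kb of reference transcript against hnRNPK enrichment (log2, mean of 2 RIPs) for the analysed protein-coding genes (grey), the 10 AKT, GSK3 and mTOR genes (red) and 2 genes of the pathway list (green). GSK3A (13.3 per kb) and NPRL3 (14.7 per kb) lie at the upper right, and MLST8, AKT2 and RPTOR lie close to AKT1S1 in runs per kb at lower enrichment.

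The genes most like each GSK3 gene were found by the Euclidean distance over the 3 enrichments among 9535 genes with at least 50 expected counts in each library. For GSK3A they were MTCO1P12 (distance 0.26), CTDNEP1 (0.39) and FAM222B (0.39), with CBFB enrichments of 4.35, 4.11 and 4.11. MTCO1P12 is a pseudogene of a mitochondrial gene and can share reads with it, so its value is uncertain. For GSK3B they were FAM234A (0.18), FAM241A (0.18) and FAM220A (0.21), all with a CBFB enrichment between -0.15 and 0.07.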

How the data were processed

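RNA was prepared with Trizol and, per the labels, libraries were made with a TruSeq mRNA kit. The submitters' processing notes name Trimmomatic, STAR, RSEM and hg19, and the annotation release and the use of strand are not given in the sources used here. The authors deposited, for each gene and library, expected counts, which are RSEM's estimated counts, FPKM and, per the file headers, a transcript length weighted by abundance. The deposited TPM values, RSEM's transcripts scaled to a fixed total, were not used. Gene identifiers were paired with symbols by means of GENCODE release 29 (GRCh38) and a gene name table, which also gave sequences and coordinates.

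Enrichment was log2(FPKM + 1) of a RIP minus that of its own input, centred on the mean over the 11764 genes that averaged an FPKM of at least 1, and was called above 2 (4-fold). The added pseudocount understates the change of low genes. The FLAG-CBFB comparison, of single libraries, was not tested. The 2 hnRNPK RIPs were tested against the parental input with edgeR 4.0.16 (quasi-likelihood test, TMM factors, genes kept by expression, Benjamini-Hochberg adjusted p under 0.05) on expected counts rounded to whole numbers, and the script was checked on simulated data. Counting intervals (95%) are computed from the expected counts and cover counting error only. Depth was 6.98e+07 to 1.07e+08 expected counts. The reference transcript of a gene was the longest protein-coding transcript in the basic annotation, among those listed in the tables, with a coding length of at least 90% of the gene's longest.

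The 10 genes, the pathway list (60 genes, CASTOR2 not matched) and the marker lists were chosen with earlier results of these data known. Named beside the 10 were RUNX1 and GAPDH, the 3 highest and 3 lowest pathway genes by the mean of both enrichments, and the 3 genes nearest each GSK3 gene. TBC1D17, PKD1, NTHL1 and AL583722.2 were named for overlapping exons. Alternatives were a pseudocount of 0.1, other centring or none, other scalings of FPKM, log2 CPM (prior count 2), the opposite input, all genes, a minimum FPKM of 5, a 2-fold threshold, each hnRNPK repeat left out, and for the count test DESeq2 1.42.0, its size factors and no filter.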

Additional observations from a re-analysis of the deposited data

Results flagged for a closer look

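TSC1 had enrichments of opposite sign with the proteins on the centred FPKM + 1 scale. Its enrichment was -0.64 with CBFB, against 0.18 and 0.19 in the hnRNPK repeats, a CBFB minus hnRNPK difference of -0.83, which was not tested because there was 1 FLAG-CBFB RIP. Its count fold change in the hnRNPK RIPs was -0.29 on the log2 scale, below 0, and its FPKM in these RIPs was 0.36 and 0.30. Both values were below 0 with a pseudocount of 0.1 (-0.94 with CBFB and -0.46 with hnRNPK), with FPKM rescaled without mitochondrial genes (-0.82 and -0.46), in log2 CPM with TMM factors (-0.81 and -0.58), with the opposite input (-0.22 and -0.24) and without centring (-1.98 and -2.46). The signs stayed opposite when centred on the median (-0.45 and 0.29). They also did when centred on the mean over genes with an average FPKM of at least 5 (-0.56 and 0.64). The hnRNPK value stayed above 0 with either hnRNPK repeat left out (0.19 and 0.18).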

How the results depend on the processing

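GSK3A stayed above 2 with CBFB in every alternative tried (2.13 to 4.83). Above 2 with CBFB was 1 of the 10 genes after scaling every library to the same arithmetic mean, with no centring and with all genes as the set for centring. With hnRNPK it was 0 with equal arithmetic means, 1 with no centring and with all genes, and 4 in log2 CPM with TMM or DESeq2 size factors. These settings shift the zero, and the share of all analysed genes above 2 is given for the main setting only. For the pathway list the CBFB count was 0 with equal arithmetic means and 2 at the 2-fold threshold, and the hnRNPK count was 0 with equal arithmetic means or no centring, 1 with all genes, 5 with DESeq2 size factors and 8 at the 2-fold threshold. The hnRNPK enrichment of AKT1S1 was -0.0074 with equal arithmetic means and no centring, the one change of sign of a gene above the threshold. That setting does not subtract the mean log2 ratio of the analysed genes, and GSK3A was lower in it too, at 1.19. With no centring alone AKT1S1 was at 0.83.

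GSK3A minus GSK3B with CBFB was 4.50 with a pseudocount of 0.1 and 4.47 with FPKM rescaled without mitochondrial genes and in log2 CPM with either set of factors. AKT1 minus AKT2 was -0.95 with CBFB and -1.76 with hnRNPK in log2 CPM with either set of factors, and -1.04 and -0.90 with the opposite input. TSC2 minus TSC1 with CBFB was 0.29 with a pseudocount of 0.1 and 0.20 without mitochondrial genes. With hnRNPK it was -0.11 and -0.022 in those settings, -0.98 with equal arithmetic means and -0.36 in log2 CPM with either set of factors. Leaving out either hnRNPK repeat kept each count of genes above 2, and gave 3.17 to 4.25 for GSK3A minus GSK3B. The count test called 4 of the 10 genes higher and 1 lower with edgeR, with DESeq2, with its size factors and with no filter. Over all genes DESeq2 called 1696 lower, against 2623 with edgeR.

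No paired analysis was possible because each input and the FLAG-CBFB RIP carry a single replicate number. The limits are a single library for FLAG-CBFB and for each input, no mock immunoprecipitation analysed here, and few counts in the hnRNPK RIPs for the weakest genes (163 to 217 for TSC1).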
